A study of Canis lupus familiaris with 2 samples.

Results

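The regions described here are 7715 windows of 1000 bp on the dog autosomes, chromosomes 1 to 38, that were dense in CpG and unmethylated in untreated cells although the DNA around them was highly methylated. Each window held at least 40 listed CpG sites, of which at least 5 had 5 or more calls in both libraries, and its methylation level in the control library was under 10%. Each lay in a 100 kb window whose control level, taken over the sites outside CpG-dense windows, was 70% or more. Windows in runs of 3 or more adjacent windows under 10% were left out. These member windows were 7715 of 1497941 windows with at least 5 usable sites, and 9.53% of the 80937 CpG-dense windows of the autosomes. The control level therefore chose them and is given as a description, whereas their level in the treated library was not used in the choice.

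The DNA came from MDCK cells, an established epithelial line from dog kidney, and was read by whole-genome bisulfite sequencing, in which unmethylated cytosines are converted and methylated ones are not. The control culture was untreated and labelled epithelial. The other culture was given TGF-beta at 5 ng/ml and labelled mesenchymal, and its library is called the treated library below. Both were cultured for 30 days side by side, and each group is 1 library, so differences rest on no replicates and a test on calls compares these 2 libraries, not the conditions. TGF-beta is a secreted growth factor that can drive epithelial cells to lose their junctions and take on mesenchymal features. The libraries held 656122583 calls in the control and 1019766599 in the treated library. Positions are in canFam3, and gene annotation and base sequence are not used here.

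In mammalian genomes most CpG sites are methylated, and the methylated cytosine of a CpG is prone to mutate, so that CpG has become rare in most of the genome. CpG islands are the exception: short stretches, many of them at gene promoters, where CpG is frequent and usually unmethylated in normal tissue. Dense methylation of a promoter island is associated with stable silencing of its gene, and gain of methylation at single islands is a known feature of cultured and cancer cells. The windows here are chosen by CpG number and level alone, so whether any of them is a promoter is not analysed here.

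Dense windows were common in highly methylated domains, but few of them were unmethylated. Of 50061 CpG-dense windows in 100 kb windows at 70% or more, 30629 (61.2%) were themselves at 70% or more in the control, 10112 (20.2%) lay between 10% and 70%, and 9320 (18.6%) were under 10%. Leaving out the runs of 3 or more low windows removed 1605 of these 9320 and gave the member windows. Of the members, 4250 had no low neighbour and 3465 belonged to a pair of adjacent low windows, and in 2750 of those the other window of the pair was a member too. They formed 6340 separate low runs of 1 or 2 windows. A neighbour with under 5 usable sites, which ends a run by the rule, lay beside 779 members.

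The members were found on each autosome and in 4167 of the 9435 autosomal 100 kb windows at 70% or more (44.2%). Of those, 2071 held 1 member, 1262 held 2 and 151 held 5 or more. The most was 11 members, on chromosome 5 from 33000001 to 33100000, where the level outside dense windows was 83.7%. Chromosome 9 had the most members, 570, or 9.33 per Mb, and chromosome 19 the fewest per Mb, at 1.34. As a share of dense windows, members made up from 3.20% on chromosome 31 to 18.8% on chromosome 32. Median control levels per chromosome ran from 0.534% to 1.51%, and median levels in the treated library from 0.894% to 2.15%.

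Within a member, CpG sites were packed closely, which follows from the rule of at least 40 sites per window and is given as a description. The median window listed 81 sites (quartiles 61 and 103, range 40 to 189), and the median distance between neighbouring sites was 6 bp (quartiles 4 and 12). Over all listed sites of the genome that distance was 31 bp (quartiles 10 and 103). In members 70.7% of neighbouring sites were within 10 bp of each other, against 25.04% over all sites. The 644744 sites listed in members are 2.49% of the 25888236 sites listed in all.

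The libraries also differed in depth in these windows, which sets the precision of each value. Members had 9222563 calls in the control and 20814085 in the treated library over 548310 usable sites, a ratio of 2.26, against 1.55 for all calls. The median site had 15 calls in the control and 35 in the treated library, against 22 and 38 over all usable sites, and the median member had 1136 and 2507 calls. All listed sites were usable in 2238 members, and under 50% of them in 457. The effect of this difference in depth on levels was not tested.

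Members stayed close to zero in the treated library as a group. Their median level was 1.12% in the control (quartiles 0.303% and 3.91%) and 1.61% in the treated library (quartiles 0.540% and 4.62%). Levels under 1% were found in 3693 members in the control and in 3008 in the treated library, and levels under 5% in 6211 and 5928. No methylated call at all was seen in 527 members in the control, 118 in the treated library and 77 in both, counts that depend on depth. Across the 7715 windows the levels of the libraries were related (Pearson's r = 0.709 and Spearman's rho = 0.807, as a description), over a control range that the rule ends at 10%.

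**Figure D1:**
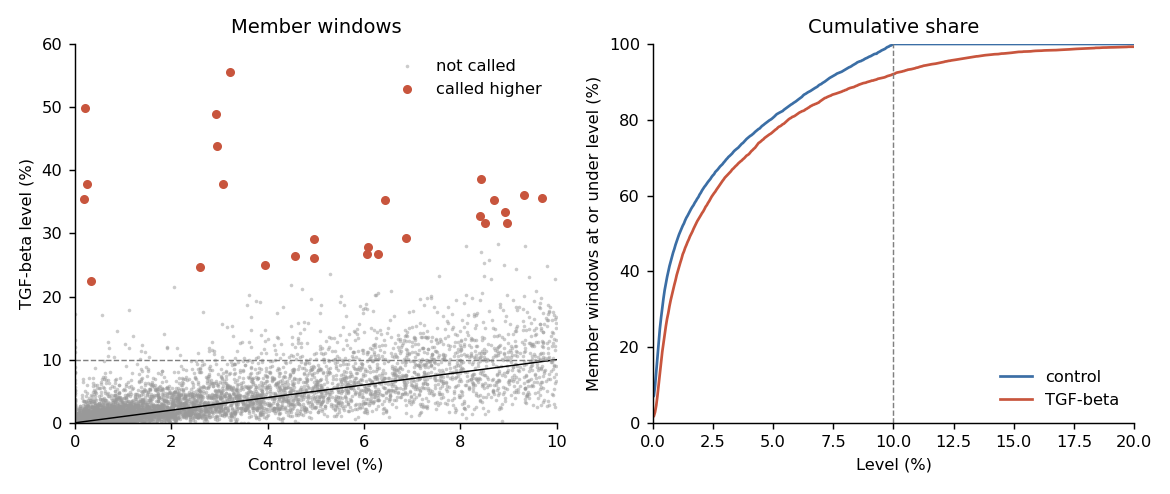
Left, level of each of the 7715 member windows in the control (x axis, %) and in the treated library (y axis, %), with the 26 windows called higher in red, the line of equal levels in black and 10% as a dashed line; right, share of members at or under each level, with the 10% limit of the rule dashed. Most points lie near the line, 612 lie above 10% in the treated library, and the called windows lie between 22.4% and 55.6%.

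The typical difference was small and upward. The median difference per window was 0.294 percentage points (quartiles -0.158 and 1.32), 5142 members were higher in the treated library and 2495 lower, and 58.8% differed by under 1 point. By the unweighted mean of site levels the median difference was 0.453 points. Summed over all members the level was 2.34% (2.33 to 2.35, exact 95% binomial interval) in the control and 3.06% (3.06 to 3.07) in the treated library. It was 2.28% and 3.03% at the first position of the CpG pair and 2.28% and 2.94% at the second. Intervals here and below cover counting error only. The level of mitochondrial DNA, an upper bound on failed conversion there, also read higher in the treated library. It was 0.329% (0.325 to 0.334) against 0.211% (0.205 to 0.217) in the control. At the first position alone it was 1.01% against 0.635%, and at the second 0.280% against 0.172%. The rate of failed conversion in nuclear DNA and its part in the small shift were not tested.

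Single sites showed the same pattern. Of the 548310 usable sites in members, 88.8% had no methylated call in the control and 77.5% had none in the treated library. At equal calls per site (the mean expected when the deeper library is drawn down to the shallower one) these shares were 88.9% and 85.5%. Sites at 50% or more numbered 6491 (1.18%) in the control, 9283 (1.69%) in the treated library and 5402 in both. The 5402 sites lay in 2035 members, so 26.4% of the windows held a CpG at 50% or more in each library. Of these sites 51.6% were within 100 bp of a window edge, where 17.1% of all usable sites lay.

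Methylation within members was thus concentrated at their edges, which lie on a fixed grid and need not be the edges of the unmethylated stretch. The outer 100 bp held 39.0% of the methylated calls of the control and 34.2% of those of the treated library, with 17.4% and 17.2% of all calls. Summed levels were 5.25% (control) and 6.08% (treated) within 100 bp of an edge, but 0.910% and 1.59% in the central 200 bp. With sites within 200 bp of an edge left out, the median member was at 0.435% in the control and 0.745% in the treated library.

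Outside the low runs methylation climbed to the level of the domain within 1 kb. By the mean of site levels, the first 250 bp beyond the edge were at 19.9% in the control and 22.4% in the treated library, the next 250 bp at 42.5% and 45.4%, and those from 500 to 750 bp at 65.5% and 68.3%. From 1000 to 1250 bp the level was 80.2% and 81.8%, above the 74.2% and 75.1% found from 9000 to 9250 bp. The density of usable sites dropped over the same distance, from 71.5 per kb more than 250 bp inside the edge to 38.6 per kb in the first 250 bp outside and 14.7 per kb from 1000 to 1250 bp. By summed calls the first 250 bp were at 24.3% and 24.0%, and those from 9000 to 9250 bp at 78.0% and 76.9%. In the first 500 bp and beyond 1250 bp the treated library was lower by summed calls but higher by the mean of site levels. The sign of the difference there depended on how sites were weighted. The height of the plateau in the control and the step at the edge follow in part from the rule.

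**Figure D2:**
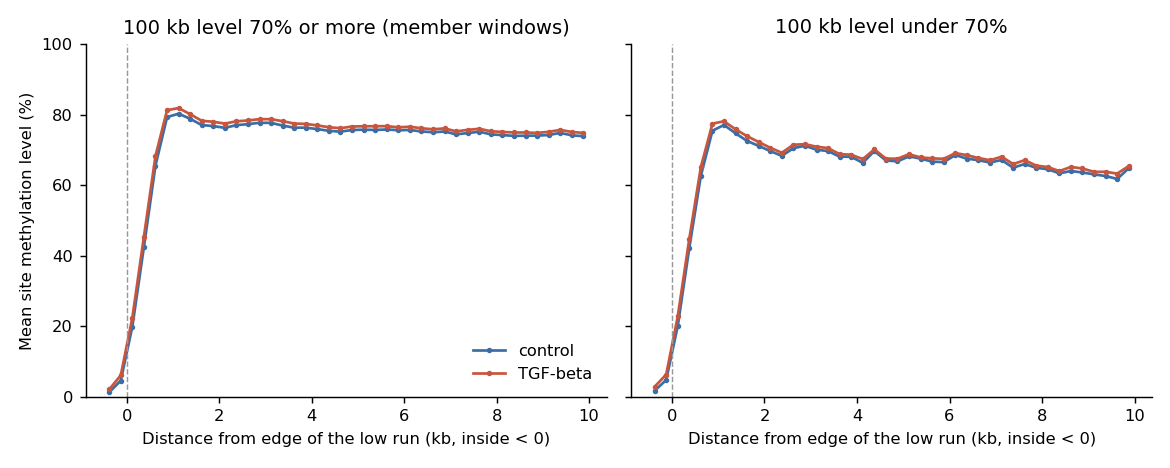
Mean site methylation level (y axis, %) in bins of 250 bp against distance from the edge of the low run (x axis, kb, negative inside) in the control (blue) and the treated library (red), for members (left) and for unmethylated CpG-dense windows in 100 kb windows under 70% (right). In both panels and both libraries the level climbs to over 75% within 1 kb of the edge; beyond that it stays higher around members, as the rule requires of the control.

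The 11686 tested windows that flank these runs had a median level of 58.9% in the control library (quartiles 31.1% and 82.0%) and 60.7% in the treated library (quartiles 31.3% and 84.5%). Their median difference was 0.850 points. Of them, 277 (2.37%) were called higher and 185 (1.58%) lower by Fisher's exact test, shares close to the 2.22% and 1.43% of all windows.

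A larger gain was rare. A window was called when the exact test on its calls gave an adjusted p under 0.05 over all windows and the levels differed by at least 20 points. Of the members 26 were called higher, 0.337%, where the same rule called 2.22% of all windows, 2.20% of all windows under 10% in the control and 0.409% of autosomal CpG-dense windows. None could be called lower, since a member starts under 10%. Of all CpG-dense autosomal windows 0.135% were. The variance of each library was also scaled up by the difference between its strands in windows of intermediate level. A score test with that variance called 23 members higher, against 0.605% of all windows. The count was 14 with the window grid shifted by 500 bp, 15 where each strand had to reach 20 points and 16 where the mean of site levels also had to. The share of all windows called under these changes is not given here, so these counts have no background to be read against. At any size of difference, 1944 members (25.2%) passed the adjusted exact test higher, against 13.4% of all windows, and 627 (8.13%) lower, against 10.0%. The median differences of these members were 2.82 and -2.53 points. Among all windows under 10% in the control the shares were 19.3% higher and 3.62% lower. These shares are read with the choice of windows in mind. A window chosen for a low control level is more likely to be higher than lower elsewhere. An exact test at any size also depends on the number of calls and the level, which were not matched between members and all windows. At 5 points or more, 6.40% of members passed higher and 0.752% lower, against 12.3% and 9.44% of all windows. Only the 1504 members at 5% or more in the control could fall that far.

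The part played by the choice of windows was seen when the libraries were swapped. The same rule applied to the treated library chose 7613 windows, of which 6822 were members (88.4% of the members and 89.6% of the swapped windows). Of the swapped windows 5 were called higher in the control and 426 (5.60%) were at 10% or more there, against 26 and 612 (7.93%) for the members. Over all windows under 10% in the control, 28.8% were at 10% or more in the treated library. Even in the swapped windows the median difference was upward, at 0.186 points, and 60.6% were higher in the treated library.

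The plus strand of the control was also used to choose and the minus strand to compare, since reads of opposite strands come from separate DNA strands. This gave 7888 windows. On the minus strand the medians were 1.04% (control) and 1.53% (treated), and 875 windows (11.1%) were at 10% or more in the control and 1041 (13.2%) in the treated library. The exact test called 38 higher and 17 lower, with 2.65% and 2.02% of all windows called on that strand. At any size of difference 1200 (15.2%) passed the adjusted exact test higher, against 7.34% of all windows on that strand, and 631 (8.00%) lower, against 5.51%. Both shares were above those of all windows, with calls and levels again not matched.

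Most members that left the low range started in its upper part. Of the 612 at 10% or more in the treated library, 502 had been at 5% or more in the control, 96 between 1% and 5%, and 14 under 1%. These were 33.4% of the 1504 members that started at 5% or more and 0.379% of the 3693 that started under 1%. A start closer to the limit needs a smaller rise, so this order is in part fixed by the rule. Levels of 20% or more were reached by 56 members and 30% or more by 16. The 26 called members ran around a median of 5.52% in the control library (range 0.185% to 9.70%) and 33.1% in the treated library (range 22.4% to 55.6%). They lay in 25 low runs on 17 chromosomes. Their CpG number was low for members, with a median of 54 listed sites, and 17 of the 26 had 60 or fewer. Under 50% of the listed sites were usable in 6 of them.

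The largest gain that met the rule for naming was on chromosome 5 from 56364001 to 56365000. The window was at 0.201% in the control (0.0244 to 0.726, 993 calls) and 49.9% in the treated library (47.9 to 51.8, 2598 calls), over 55 of 55 listed sites (adjusted p = 5.47e-228, exact test). The next window, 56365001 to 56366000, also a member and also among the 5 largest gains, was at 0.185% (0.0382 to 0.540, 1622 calls) and 35.4% (33.8 to 37.1, 3416 calls) over 59 sites. The pair is the only one of 1375 pairs of adjacent members in which both windows were called. In the first window 53 of 55 sites had no methylated call in the control, whereas 48 were at 20% or more and 28 at 50% or more in the treated library. Site levels in the treated library ranged from 2.17% to 95.5% (SD over sites 26.1), so neighbouring CpGs differed widely although the 4 stretches of 250 bp in the window lay between 43.7% and 55.1%. The gain was as large on each strand, at 49.9 and 49.5 points. Outside the pair, the left neighbour was at 59.4% and 71.4%, and the right neighbour at 16.6% and 50.0%.

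On chromosome 24 from 25981001 to 25982000 a single window was at 2.92% in the control (1.88 to 4.32, 821 calls) and 48.9% in the treated library (46.3 to 51.5, 1438 calls), over 40 of 40 listed sites. Here 35 sites were higher by 20 points or more and none was under 10% in the treated library. Its left neighbour was methylated in both libraries, at 91.8% and 94.6%, and its right neighbour was at 61.6% and 86.3%. The window was thus at an intermediate level between methylated flanks in the treated library.

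On chromosome 9 from 24839001 to 24840000 the level was 2.95% in the control (1.20 to 5.99, 237 calls) and 43.8% in the treated library (38.8 to 48.9, 386 calls). Only 24 of 40 listed sites were usable, and 17 of them lay in the first 250 bp, where the level was 3.45% and 50.6%. The next 250 bp had no methylated call among 47 in the control and were at 20.4% in the treated library. In the third 250 bp the 2 usable sites were at 6.25% of 16 calls in the control and had no methylated call among 20 in the treated library, which allows up to 15.0%. The last 250 bp held no usable site. The right neighbour was at 0.143% and 1.11%, so the gain was in the left window of a pair of low windows whose right window was low in both libraries.

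On chromosome 27 from 38082001 to 38083000 the window was at 0.245% in the control (0.0296 to 0.880, 818 calls) and 37.8% in the treated library (35.2 to 40.5, 1332 calls) over 40 sites. In the control 39 of the 40 sites had no methylated call. In the treated library 16 were at 50% or more and 7 under 10%, and the 4 stretches of 250 bp ranged from 24.9% to 58.1%. The left neighbour was at 13.1% and 47.2%, and the right one at 82.7% and 93.1%.

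**Figure D3:**
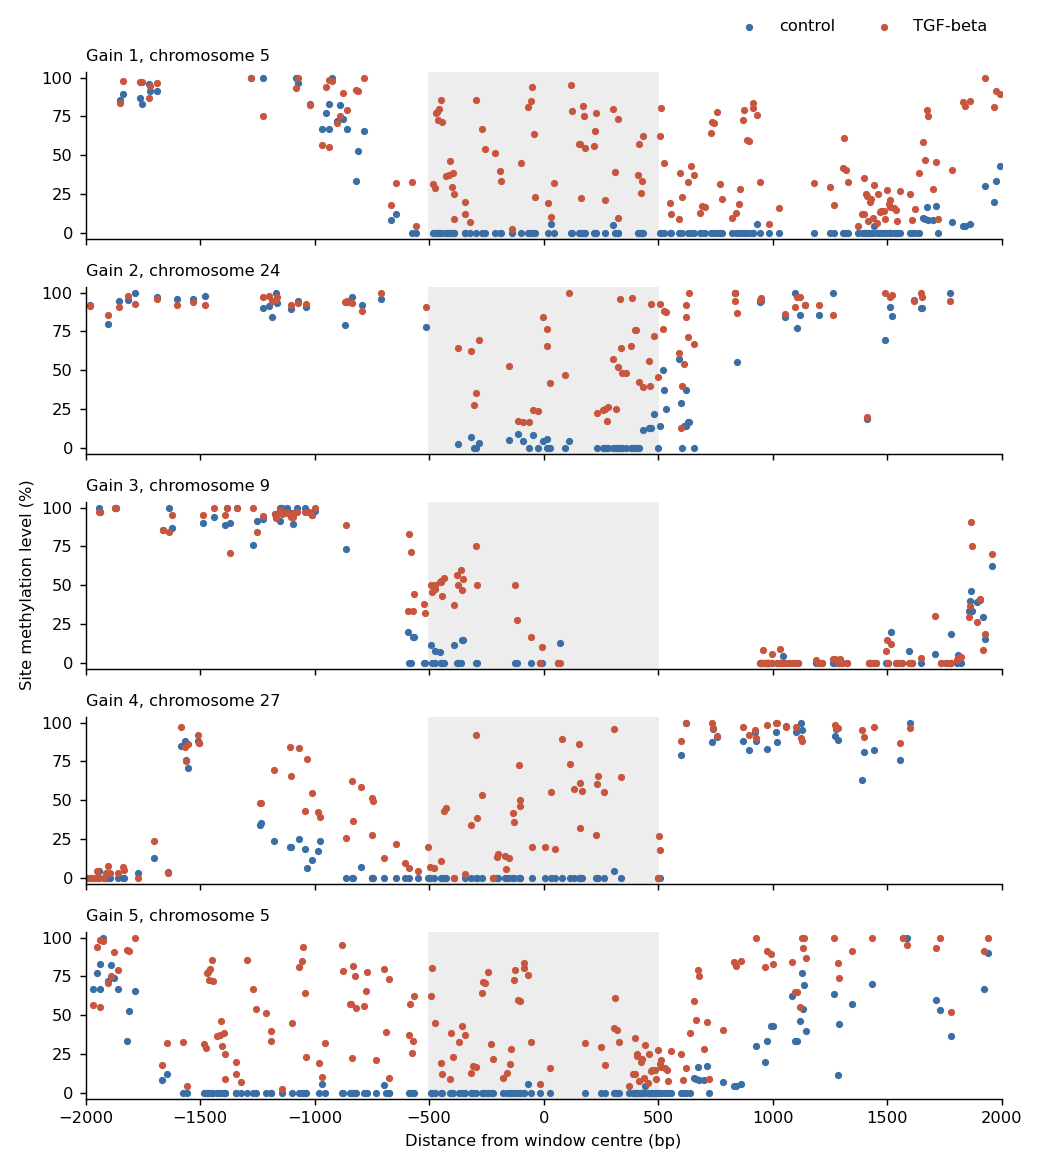
Site methylation level (y axis, %) against distance from the window centre (x axis, bp) in the control (blue) and the treated library (red) for the 5 largest gains that met the rule for naming, with the 1000 bp window shaded; gains 1 and 5 are the adjacent windows on chromosome 5. Control sites inside the windows reach at most 21.4%, in the window of chromosome 24, and sites of the treated library are spread widely, in gain 1 from 2.17% to 95.5%.

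The domains around these gains differed by under 3 points. Around the pair on chromosome 5 the 100 kb window differed by -2.82 points, around the window of chromosome 24 by -0.810, and around those of chromosomes 9 and 27 by 2.09 and 1.50. Over the 26 called members the median difference of the 100 kb window was -0.295 points, and over all members 0.509 points. Of the 47 tested windows flanking called members, 5 (10.6%) were called higher, against 2.37% of all windows flanking members and 2.22% of all windows, and none lower. The median difference of the 47 was 3.38 points by summed calls.

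The largest difference among members did not meet the rule for naming, because only 9 of 53 sites were usable. It was on chromosome 12 from 48623001 to 48624000, at 3.23% in the control (62 calls) and 55.6% in the treated library (162 calls). Besides the pair on chromosome 5 and the window on chromosome 27, the only called member that started under 1% was on chromosome 16 from 6288001 to 6289000, at 0.324% (309 calls) and 22.4% (500 calls). The called members with over 100 listed sites numbered 4. On chromosome 35 at 18357001, a window of 170 sites (113 usable) was at 8.41% and 32.7%. On chromosome 13 at 2026001, a window of 111 sites (87 usable) was at 9.32% and 36.1%. On chromosome 25 at 51297001, a window of 129 sites (92 usable) was at 3.95% and 24.9%. On chromosome 6 at 63389001, one of 108 sites (44 usable) was at 4.56% and 26.3%. By the mean of site levels the windows of chromosomes 35 and 13 differed by 25.6 and 27.0 points. Those of chromosomes 25 and 6 differed by only 11.5 and 13.6 points. The windows of this paragraph were picked after their values were seen.

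Smaller gains that passed the adjusted exact test were more frequent, with 94 members higher by 10 to 20 points. Gains of 10 points or more, the 26 included, numbered 120, where the same limit called 8.40% of all windows higher. At 5 points or more 494 members (6.40%) passed the adjusted exact test higher and 58 (0.752%) lower. The same limit called 12.3% of all windows higher and 9.44% lower. A fall of 5 points was possible only for the 1504 members at 5% or more in the control. The smaller count of falls is thus in part fixed by the rule. Weighting sites equally kept 5 points in 268 of the 494 and in 6 of the 58, and 5 points on each strand were found in 221 and 9. In 27 members 1 strand was higher and the other lower, each by at least 5 points. The largest fall, picked after its values were seen, was on chromosome 15 from 44469001 to 44470000, from 8.87% (5.82 to 12.8, 282 calls) to 0.259% (0.0314 to 0.933, 772 calls), or -6.18 points by the mean of site levels.

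Where a pair of adjacent members held a called window, mostly only 1 of the 2 was called. In the 10 pairs of adjacent members with 1 called window, the other window differed by a median of 1.05 points, over a range of -1.28 to 5.98. That other window is by definition one that did not meet the rule for calling, so its small difference is in part fixed. Neighbours that were not members are not counted here, and those of the named gains are given above. Across the 1364 pairs with no called window the differences of the 2 windows were hardly related (r = 0.0893, as a description).

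CpG number ordered the levels in both libraries. Members with 40 to 59 listed sites had medians of 2.30% in the control and 2.76% in the treated library, those with 60 to 79 at 1.52% and 1.97%, those with 80 to 99 at 0.949% and 1.46%, and those with 100 or more at 0.525% and 0.932%. The quartiles of neighbouring classes overlapped. Of the 1771 members in the sparsest class 17 (0.960%) were called higher, against 4 of 1974, 1 of 1810 and 4 of 2160 in the others. By summed calls the median difference lay between 0.287 and 0.311 points in the 4 classes. By the mean of site levels it was 0.641 points in the sparsest class, then 0.541 and 0.429, and 0.332 in the densest. Medians varied less over 5 classes of the level of the surrounding 100 kb window. In the control they fell from 1.28% at 70% to 75% to 1.03% at 85% to 90%, and were 1.10% above 90%. In the treated library they lay between 1.45% and 1.88%, in no steady order.

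**Figure D4:**
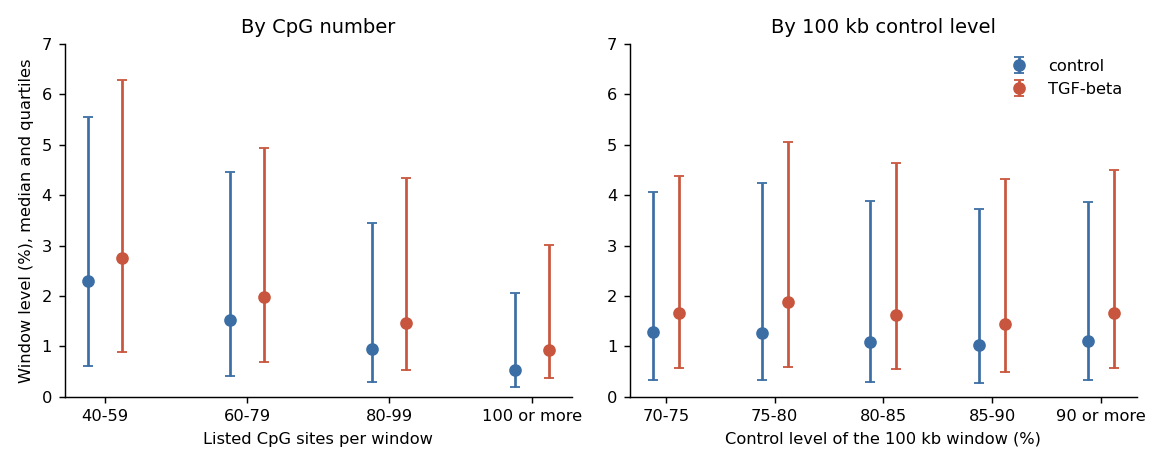
Level of member windows (y axis, %; points are medians and bars quartiles over windows) in the control (blue) and the treated library (red) by number of listed CpG sites (left) and by control level of the surrounding 100 kb window (right). Medians fall from 2.30% to 0.525% in the control with CpG number. Over the classes of 100 kb level control medians lie between 1.03% and 1.28%.

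The 3 members with the most listed sites were all low in the control, and 1 of them was above 2% in the treated library. On chromosome 18 from 25733001 to 25734000, 182 of 182 listed sites were usable, at 0.192% in the control (3650 calls) and 0.102% in the treated library (9768 calls), and no site was above 9.52% in either. On chromosome 2 from 44088001 to 44089000, with 187 listed sites, the level was 0.196% and 0.271%. On chromosome 8 from 72774001 to 72775000, with 189 listed sites of which 106 were usable, it was 0.278% and 2.24%, with 2 sites at 20% or more in the treated library. The 3 deepest members in the control were on chromosome 18 at 49090001 (1.04% and 1.77%), chromosome 38 at 21107001 (6.81% and 7.35%) and chromosome 1 at 110500001 (0.447% and 0.282%). On chromosome 38 sites differed most of these 3, and 28 of 88 were at 20% or more in the treated library. By the mean of site levels that window was at 11.7% in the control and 16.7% in the treated library. Its plus strand differed by 3.20 points and its minus strand by -1.06.

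Values on each side of the 10% limit are given as a description. The members just inside, on chromosome 10 at 61839001 and chromosome 15 at 3865001, were both at 9.99% in the control and at 7.67% and 6.60% in the treated library. By the mean of site levels they were instead higher in the treated library, at 5.14% and 7.40% on chromosome 10 and 4.88% and 5.33% on chromosome 15. The windows just outside, on chromosome 2 at 21374001 and chromosome 12 at 12704001, were at 10.0% in the control and at 6.36% and 5.10% in the treated library. They had only 150 and 110 control calls over 21 of 74 and 18 of 49 listed sites. The members just inside had 1731 and 1631. Neither window outside passed the adjusted exact test. On chromosome 2 the plus strand differed by -4.67 points and the minus strand by 3.56.

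Unmethylated CpG-dense windows of the same kind in less methylated domains had similar values. The 950 such windows in 100 kb windows under 70% had medians of 1.62% (control) and 2.09% (treated), with a median difference of 0.375 points. In them 6 (0.632%) were called higher and 97 (10.2%) were at 10% or more in the treated library, against 0.337% and 7.93% of members. The 1605 windows in longer runs within highly methylated domains were lower in both libraries, at 0.384% and 0.694%, with 1 called higher and 72 (4.49%) at 10% or more. The difference between these sets was not tested, since windows are not replicates and the sets share the libraries.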

How the data were processed

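The authors' deposited files hold counts of methylated and unmethylated calls per CpG cytosine, with no header. Bismark, Bowtie 0.12.8 and canFam3 appear in the submitters' processing notes, but the labels' protocols give SOAPaligner2 as the aligner. Removal of duplicates is not given in the sources used here, and duplicates or overlapping mates would make intervals too narrow. Column 3 was taken as methylated calls, since mitochondrial DNA is almost free of them. In each file 1 line naming no chromosome was left out.

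Neighbouring cytosines were paired, giving 25888236 CpG sites, 90.6% with both strands listed. Odd runs of cytosines, with 0.00656% of calls, were dropped. Level is methylated calls over all calls, summed over sites with 5 or more calls in both libraries. Windows were compared with two-sided Fisher's exact tests, with Benjamini-Hochberg adjustment over all 1497941 windows. The test was also run on simulated binomial counts. These lack the extra variance between strands, so they cannot give the rate of false calls in these libraries. In an alternative score test, binomial variance was multiplied by 2.99 (control) and 5.87 (TGF-beta). Each factor is the mean squared difference between strands relative to its binomial variance, over windows of intermediate level, at 10% or more. Members were chosen under 10% in the control, so the control factor rests on windows of higher level. A low run ends at a window with under 5 usable sites.

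Named gains are the 5 largest among called members with at least 10 usable sites, 200 calls per library and 10 points on each strand. Also named were the 3 members with the most sites, the 3 with the most control calls and the 2 windows on each side of the limit. The members, lists and settings were chosen with earlier results of these data known. Gene lists were planned and are not analysed here, since no annotation of canFam3 was used. Python 3.11.15, numpy 2.4.6, scipy 1.17.1, pandas 2.3.3 and numba 0.67.0 were used.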

Additional observations from a re-analysis of the deposited data

How the results depend on the processing

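The number of members lay between 5575 and 9320 under 10 alternatives, among them a grid shifted by 500 bp, 50 listed sites, other limits on level and other handling of runs. The 26 windows called higher became 14 with the shifted grid, 15 with a 100 kb level of 80% or more, 15 with 20 points on each strand, 16 where equal weights for sites also had to give 20 points, 13 with a control level under 5% and 120 with a size limit of 10 points. Swapping the libraries gave 5. Under the other 8 alternatives, among them 10 calls per site and a score test with the variance between strands, the count lay between 20 and 38. No share of all windows is given here for the shifted grid or the limits by strand and by site weights. The same holds for 10 calls per site and for sites near edges left out. The median level in the TGF-beta library, 1.61%, was 0.745% with sites within 200 bp of an edge left out, and between 1.53% and 1.67% under 7 others. The 612 members at 10% or more became 1041 when windows were chosen on one strand and compared on the other, and lay between 408 and 638 under 8 others. Leaving out edges, leaving out chromosomes 3, 6, 7 and 25, requiring 50% of the listed sites, counting thinly covered windows in runs, and splitting the strands were added after the data were examined. No paired analysis was possible because each group has 1 library. Windows of few usable sites, such as 9 of 53 on chromosome 12, limit single values.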

Other observations

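Chromosome X, which the rule leaves out, held 54 windows that met the same criteria, or 1.75% of its 3083 tested CpG-dense windows, against 9.53% on the autosomes. Their median level was 1.36% in the control (quartiles 0.229% and 5.62%) and 1.46% in the TGF-beta library (quartiles 0.380% and 15.4%). Of the 54, 15 were at 10% or more in the TGF-beta library. So were 7.93% of the autosomal members and 28.8% of all windows under 10% in the control. By Fisher's exact test 2 of the 54 were called higher. The same rule called 0.337% of the autosomal members and 2.22% of all windows. The difference between chromosome X and the autosomes was not tested.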
